A study of Mus musculus with 81 samples.

Results

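Wild-type (WT) macrophages taken from the peritoneal cavity were compared with WT macrophages grown from bone marrow in culture. The libraries were chosen by genotype, source, day and treatment as their labels give them, which gave 6 of the 81 RNA-seq libraries of the series: 3 of peritoneal macrophages and 3 of bone marrow-derived macrophages (BMDMs) harvested on day 8 without interferon-γ. WT here means mice with floxed alleles of both genes for histone H3.3, H3f3a fl/fl and H3f3b fl/fl, and no Cre. The conditional knockout (cKO) libraries used further on carry the same alleles with LysM cre/cre, a Cre inserted in the lysozyme gene Lyz2 that is active in myeloid cells. By the study's methods the mice were C57BL/6 of both sexes, aged 8 to 10 weeks, and the BMDMs matured in medium conditioned by L929 cells, a source of the growth factor CSF1. The peritoneal cells were isolated with a Miltenyi kit, whose selection step is not described. Whether the peritoneal cells were resident or drawn in by an irritant is not given in the sources used here.

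The study compared cKO with WT within each experiment and did not make this comparison, so it answers a question of identity: which genes separate a macrophage of a body cavity from a macrophage made in a dish. Source, experiment and library preparation changed together. The labels give the same kit with depletion of ribosomal RNA for every library, whereas the study's methods name a low-input kit primed on poly(A) tails, and another RNA extraction, for the peritoneal cells. The effect of cell source and that of library preparation cannot be told apart for any single gene, and weight is therefore put on differences of at least 4-fold and on how they are distributed over groups of genes of known function. The libraries are bulk RNA, in which more cells of a type and more RNA per cell cannot be told apart. The labels call the libraries biological replicates but do not tie them to single mice, so p-values measure the spread between these libraries.

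Peritoneal macrophages of the mouse are mostly large resident cells that depend on the transcription factor GATA6, which vitamin A derivatives made in the omentum and mesothelium help to induce. These cells are known for uptake of apoptotic cells through the phosphatidylserine receptor TIM-4 (Timd4), for clotting factors and complement, and for lipid mediators made by 12/15-lipoxygenase (Alox15). BMDMs arise from progenitors under CSF1 alone, spread on plastic and are rich in lysosomal, lipid-handling and matrix-remodelling genes.

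The 3 BMDM libraries held 7284793, 7881928 and 9201425 counts on genes and the 3 peritoneal libraries 8874069, 14620569 and 23381318. In all, 12388 genes passed the filter on low counts, and by the quasi-likelihood test of edgeR 8360 of them (67.5%) differed at a Benjamini-Hochberg adjusted p under 0.05, 4206 higher and 4154 lower in peritoneal macrophages. A difference is called large here when it passed that test, was at least 4-fold (2 on the log2 scale) and the groups did not overlap in CPM, the counts scaled to library size. Large differences numbered 2991 genes (24.1% of those tested), of which 1054 (8.51%) were higher and 1937 (15.6%) lower in peritoneal macrophages, and a gene list has to be read against these shares. Groups that did not overlap are common in themselves, with 74.6% of the tested genes. The third peritoneal library stood apart in genes read at low counts: 11214 of its genes had 1 to 3 counts, against 3820 and 4049 in the other peritoneal libraries and 5301 to 5453 in BMDMs. At an equal depth of 7284793 counts it would still read 20653 genes, against 16516 and 16168, and 6.88% of its reads fell on no feature, against 3.76% and 3.90%. The third library of either group had Xist (34.0 CPM in peritoneal and 1214 in BMDM) and no Ddx3y, and the others had Ddx3y. Unless stated, values are CPM in peritoneal replicates 1, 2 and 3 and then in BMDM replicates 1, 2 and 3, fold changes are log2 of peritoneal over BMDM with their standard error (SE), and every gene called higher or lower passed the rule for a large difference.

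The labels held against the defining markers. Gata6, encoded on chromosome 18, between positions 11052064 and 11085635 of GRCm38, had 96.9, 129.5 and 143 CPM in peritoneal macrophages and no count in any BMDM library. This is at least 1128-fold higher, taking 3 counts over the BMDM group as the floor (adjusted p = 3.97e-06, edgeR). Timd4, on chromosome 11, between positions 46810800 and 46844332, had 1292, 1543 and 1436 CPM against 1.51, 0.121 and 0 (log2 fold change 11.43, SE 0.73, adjusted p = 6e-06). The surface protein ICAM2 is another marker of the large peritoneal cell, and Icam2 stood at 1501, 1091 and 1057 against 4.41, 3.39 and 4.35 CPM (log2 fold change 8.22). The complement receptor gene Vsig4 read 577, 508 and 678 against 0.252, 0.605 and 0.506. Selp, which codes for P-selectin, an adhesion molecule also found in platelets and endothelium, had 1154, 1627 and 1592 CPM and no count in BMDMs (at least 13184-fold higher). None of these 5 markers had overlapping groups, which was also so for 74.6% of all tested genes.

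Genes that any macrophage uses were present on both sides. Csf1r, the CSF1 receptor, read 2606, 2827 and 3439 against 1307, 1656 and 1463 CPM, a log2 difference of 1.003 that passed the test (adjusted p = 0.00142) without reaching 4-fold. Cd68, a lysosomal protein of macrophages, overlapped between the groups (1001, 648 and 681 against 857, 986 and 939, adjusted p = 0.281). Adgre1, the gene for F4/80, was higher in peritoneal cells (5190.0, 4918 and 6535 against 738, 1263 and 975, log2 fold change 2.48), and so were Itgam, the gene for CD11b (591, 871 and 976 against 123, 136 and 122), and the efferocytosis kinase Mertk (233 to 339.8 against 52.5 to 64.6). The Fc receptor gene Fcgr1 was lower without reaching the 4-fold rule (50.7, 40.7 and 26.6 against 120.5, 195 and 136, log2 fold change -1.94), and against BMDMs cultured without antibody it turned to higher in peritoneal cells. Of 26 core macrophage genes, all tested, 6 were higher and 3 lower, with a median log2 difference of 0.45 against 0.03 over all tested genes. The lower ones were the perforin-like gene Mpeg1 (323, 52.2 and 81.1 against 3129.9, 4173 and 3443), the scavenger receptor Stab1 (40.4 to 141 against 1317 to 1928) and the inhibitory receptor Sirpa (299 to 424 against 1906 to 2659).

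**Figure D1:**
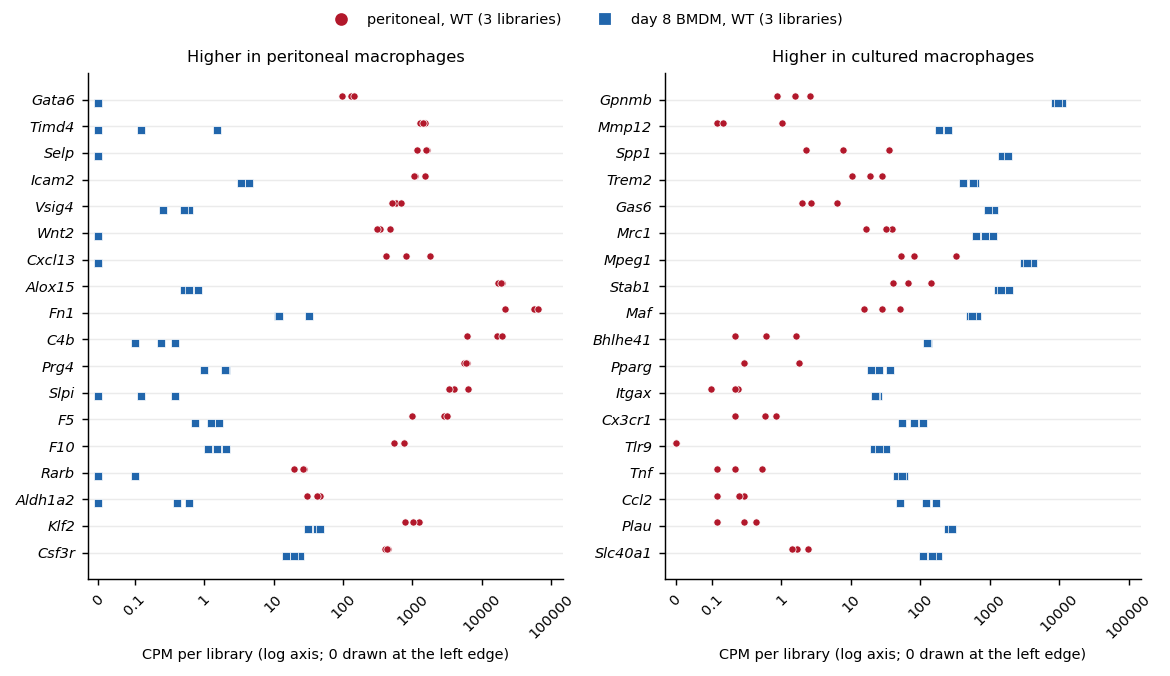
CPM in each of the 3 peritoneal (red circles) and 3 day 8 BMDM (blue squares) WT libraries on a log axis, for 18 genes higher in peritoneal macrophages (left) and 18 higher in BMDMs (right), with 0 drawn at the left edge. In each of the 36 genes shown the groups do not overlap (as in 74.6% of all tested genes), and Gata6, Selp, Wnt2 and Cxcl13 have no count in any BMDM library.

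The 250 bases before the start of the genes of the Gata6-linked list described next were searched for the letters AGATAA and TGATAA on both strands, forms of the core that GATA factors bind. The promoter table (RefSeq, GRCm38.p6) holds 28 of the 40 genes. A match was found in 6 of the 28 (21.4%): Serpinb2, Slpi, Cd5l, Wnt2, Saa3 and Lyz1. In the whole set of promoters 5092 of 27025 genes (18.8%) hold a match, so the share in the list is near that of any gene, and absence of these letters says only that they are not in this window. The windows of the marker Timd4, which has no match, and of 3 genes with a match that are described below are shown 5′ to 3′ on the strand of the gene, ending at the base before the start, with the motif in capitals. They lie at chr11:46810549-46810798 (Timd4, plus strand), chr6:18030446-18030695 (Wnt2, minus strand, TTATCA, the reverse complement of TGATAA, from base -9), chr2:164356508-164356757 (Slpi, minus strand, TGATAA from base -17) and chr3:87357631-87357880 (Cd5l, plus strand, TGATAA from base -127).
Timd4: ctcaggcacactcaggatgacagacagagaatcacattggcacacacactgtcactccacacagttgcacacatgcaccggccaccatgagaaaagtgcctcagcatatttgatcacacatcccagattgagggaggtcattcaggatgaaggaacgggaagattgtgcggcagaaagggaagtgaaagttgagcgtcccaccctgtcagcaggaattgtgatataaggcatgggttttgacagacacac
Wnt2: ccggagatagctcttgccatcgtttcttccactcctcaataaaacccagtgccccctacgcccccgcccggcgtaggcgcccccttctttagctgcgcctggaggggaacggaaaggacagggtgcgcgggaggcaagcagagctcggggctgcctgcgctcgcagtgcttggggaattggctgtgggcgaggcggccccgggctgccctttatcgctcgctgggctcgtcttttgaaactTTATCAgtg
Slpi: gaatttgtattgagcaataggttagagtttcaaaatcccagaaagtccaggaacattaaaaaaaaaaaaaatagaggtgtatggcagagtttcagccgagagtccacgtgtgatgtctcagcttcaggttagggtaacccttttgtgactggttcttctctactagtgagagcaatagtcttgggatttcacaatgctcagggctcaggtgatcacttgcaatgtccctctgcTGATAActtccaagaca
Cd5l: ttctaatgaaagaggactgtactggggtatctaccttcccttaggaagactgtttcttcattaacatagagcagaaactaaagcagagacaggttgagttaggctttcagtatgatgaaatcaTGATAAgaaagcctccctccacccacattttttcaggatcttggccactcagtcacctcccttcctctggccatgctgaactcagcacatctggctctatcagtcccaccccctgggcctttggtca

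The list of 40 genes linked to GATA6 and to the large peritoneal macrophage had 39 tested members. Of these, 36 were higher and 2 lower in peritoneal macrophages, with a median log2 difference of 9.83 (9.83 also with genes at 0 set to their bound). Over all tested genes 8.51% were higher and 15.6% lower. In BMDMs 19 of the 40 were at or under 1 CPM in every library. Genes so low there can enter the test only through the peritoneal libraries, so the filter set their direction. The list was also chosen with earlier results of these data known, so its counts describe these libraries and test nothing. The remaining tested member, the growth factor gene Hgf, was higher by less than 4-fold (18.4, 16.1 and 49.8 against 12.1, 14.04 and 12.96, log2 fold change 1.12). For this gene Hgf the call was lost without the third peritoneal library (0.43) and without any of the 3 BMDM libraries (1.03 to 1.15). Clec4g was too low to be tested. Many members were among the most abundant transcripts of the cell. On a per-length scale (counts divided by exon length, as TPM), Alox15 ranked 3 among all genes in peritoneal macrophages, Fn1 6, Slpi 8 and C4b 11, whereas in BMDMs none of these came before rank 9860.

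Alox15, the lipoxygenase gene on chromosome 11, between positions 70344152 and 70352031, had 16957, 19789 and 18733 CPM in peritoneal cells and 0.505, 0.605 and 0.8099 in BMDMs, a log2 fold change of 14.77 (SE 0.32, adjusted p = 3.11e-07). Ptgis, which codes for prostacyclin synthase, had 548, 510.0 and 533 CPM against 0.126, 0 and 0, a ratio of 13775-fold (2472 to 544104) with the 95% counting interval in brackets. Both lipid mediator enzymes were near 0 in every BMDM library. Among secreted proteins, Fn1 (fibronectin) read 21829, 55964 and 65425 against 11.7, 32.8 and 11.9. Prg4, the gene for the joint lubricant lubricin, read 5622, 6052 and 5995 against 1.01, 2.06 and 2.02. The protease inhibitor gene Slpi read 6284, 3919.6 and 3314 against 0.378, 0.121 and 0. The first peritoneal library was the lowest for Fn1 and the highest for Slpi, yet it stayed above every BMDM library in both.

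Wnt2, a Wnt ligand, had 340.4, 307 and 479 CPM and no BMDM count (at least 3446-fold higher), and the growth factor gene Tgfb2 read 361, 596 and 564 against 0, 0.605 and 0.202. Cxcl13, the B cell chemokine, had 418, 815 and 1795 CPM and no BMDM count (at least 10499-fold higher), and was lowest in the first peritoneal library. Ednrb, an endothelin receptor, stood at 1968, 3275 and 2223 against 11.6, 11.6 and 10.2. The scavenger receptor gene Marco stood at 590.1, 311 and 399 against 1.51, 0.847 and 2.53. That none of these signals and receptors overlapped between the groups follows from the rule for a large difference. Cd5l, which codes for a secreted scavenger receptor protein, was already present in BMDMs and was higher in peritoneal cells (2203, 2019.6 and 2123 against 19.5, 61.3 and 34.8, log2 fold change 5.78). The same holds for Pf4, a platelet and macrophage chemokine (1632, 653 and 721 against 32.5, 77.96 and 51.3), and for the laminin-binding integrin Itga6 (1591, 2734 and 3056 against 249, 299 and 268). The 2 members that ran the other way were Gas6, a bridging ligand for apoptotic cells (6.38, 2.66 and 1.98 against 937, 1142 and 961, log2 fold change -8.19), and Cd93 (133, 228 and 305 against 1053, 1343 and 1118).

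Beyond this list, the 15 largest rises among well expressed protein-coding genes also included Gbp2b, an interferon-inducible GTPase (1028, 725 and 1030.3 against 0 CPM), Retnla, a marker of alternative activation (1371, 182 and 291 against 0), and Mst1r, the receptor for macrophage-stimulating protein (50.2, 243 and 232 against 0). The membrane protein gene Ms4a8a (512, 287 and 413 against 0) and the vomeronasal receptor gene Vmn2r26 (165, 207 and 169.6 against 0) were the other members from outside that list. The other 10 were Selp, Cxcl13, C4b, Wnt2, Alox15, Slpi, Aspa, Lrg1, Gata6 and Ptgis. Gbp2b and C4b each have a closely related neighbouring copy, and counts of uniquely placed reads may divide such pairs unevenly. Retnla was highest in the first peritoneal library and Mst1r lowest there.

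The 15 largest falls were led by Gpnmb, a membrane glycoprotein of lysosome-rich macrophages on chromosome 6, between positions 49036546 and 49070929, at 2.600, 0.864 and 1.59 CPM against 8725, 11014 and 9744 (log2 fold change -12.57, SE 0.45, adjusted p = 6.54e-07). It ranked 13 per length in BMDMs and 13233 in peritoneal cells. The neuropeptide gene Npy had 0.118, 0 and 0 against 48.2, 114 and 109 CPM. Cd72, a receptor of B cells and macrophages, had 0.118, 0.144 and 0.0966 against 134, 157 and 132. The urokinase gene Plau had 0.118, 0.288 and 0.435 against 275, 252 and 291. All 3 were close to 0 in each peritoneal library. Hpgds, the haematopoietic prostaglandin D synthase, read 0.236, 0.07197 and 0.579 against 216, 281 and 242. The creatine transporter gene Slc6a8 read 0.118, 0 and 0.193 against 112, 122 and 109.5. The phosphatase gene Dusp4 read 0, 0.144 and 0.0483 against 65.5, 66.1 and 72.4. These genes were even across the 3 BMDM libraries. The semaphorin and VEGF co-receptor Nrp2 was at 0.473, 0.7197 and 2.32 against 666, 590.4 and 616. Ms4a7, a membrane protein gene, was at 0.591, 0.216 and 0.821 against 222, 371 and 289. The monocyte chemokine gene Ccl2 was at 0.118, 0.288 and 0.241 against 169, 51.8 and 123, lowest of the BMDM libraries in the second. The other 5, Pcp4l1, Ggta1, Speg, Arfgef3 and Ttyh2, had at most 0.435 CPM in any peritoneal library and at least 49.9 CPM in every BMDM library.

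Of 40 transcription factor genes known from macrophages, 38 were tested, with 6 higher and 8 lower and a median log2 difference of -0.13. The lineage factor Spi1 (PU.1) differed by 0.56 on the log2 scale (300.4, 366 and 261 against 201, 223 and 207). For this gene Spi1 the call was lost without the first (0.50) or the third BMDM library (0.51). Beside Gata6 and Rarb, a rise was found for Klf2, a factor of quiescent endothelium and macrophages (1257, 1028 and 781 against 41.6, 31.1 and 46.7, log2 fold change 4.68). Bhlhe40 was higher (280.2, 366 and 236 against 31.5, 21.9 and 25.8) while its paralogue Bhlhe41 was lower (0.591, 0.216 and 1.64 against 131, 130.4 and 124, log2 fold change -7.12), so this pair of related repressors ran in opposite directions. Against BMDMs without antibody Bhlhe40 was no longer called. Pparg, the factor of alveolar macrophages, stood at 1.77, 0.288 and 0.2897 against 19.4, 36.7 and 25.3. Maf, which restrains macrophage self-renewal, stood at 51.6, 15.7 and 28.5 against 524, 662 and 558. Both Runt factors were lower, Runx1 at 12.2, 11.9 and 21.5 against 126, 136 and 132 and Runx2 at 0.355, 0.144 and 0.772 against 11.2, 11.4 and 11.4. Mitf, a regulator of lysosomal genes, was lower as well (17.8, 13.2 and 17.6 against 62.4, 97.4 and 83.7), as was the stress factor Atf3 (22.6, 29.6 and 24.9 against 119, 159.7 and 133). The factors of other tissue macrophages Spic and Sall1 had at most 0.363 CPM in every library.

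The retinoid pathway, which feeds the induction of Gata6, had 14 of 24 genes tested, 5 higher and 1 lower. The retinoic acid receptor Rarb had 27.4, 19.6 and 26.5 CPM against 0, 0 and 0.101, a ratio of 637-fold (114 to 25197), and Rarg 51.2, 94.4 and 68.5 against 11.4, 13.6 and 10.6. Rara was higher by less than 4-fold (49.8, 81.3 and 66.5 against 19.9, 22.4 and 17.8). Cyp26a1, which breaks retinoic acid down, read 46.4, 15.9 and 25.9 against 0, 0 and 0.101, and Aldh1a2, which makes it, 47.4, 30.4 and 42.4 against 0, 0.605 and 0.405 (log2 fold change 6.82). Rxrg was low but read only in peritoneal cells (1.300, 2.16 and 2.27 against 0, at least 17.8-fold higher). The receptors Rarb, Rarg and Rxrg, the synthesizing Aldh1a2 and the degrading Cyp26a1 were thus higher in peritoneal cells. At any size 9 of the 14 tested genes passed the test as higher and 4 as lower. Members near 0 in BMDMs, such as Rarb, entered the test only through the peritoneal libraries. The single gene lower by the rule for a large difference was Stra6l, a retinol-binding protein receptor (0, 0 and 0.386 against 12.6, 14.4 and 13.7).

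Complement genes had 20 of 27 members tested, 12 higher and 2 lower, with a median log2 difference of 3.02. C4b, which codes for complement component 4, had 6187, 16494 and 19725 CPM against 0.378, 0.242 and 0.101 (log2 fold change 15.83, SE 0.76, adjusted p = 1.7e-06). Cfp (properdin), which stabilizes the alternative convertase, read 4819, 3688 and 6479 against 299.9, 326 and 331. C3 was higher too (388, 616 and 754 against 60.7, 60.9 and 49.6). The 3 chains of C1q were abundant on both sides: C1qb ranked 4 per length in peritoneal cells and 19 in BMDMs, and the log2 differences were 1.88 (C1qa), 1.78 (C1qb) and 2.04 (C1qc). Itgax, the gene for the complement receptor chain CD11c, was lower (0.236, 0.216 and 0.0966 against 24.7, 23.1 and 22.3, log2 fold change -7.06), although its sister chain Itgam was higher. The receptor gene C5ar2 was the other lower member.

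Clotting and fibrinolysis genes had 20 of 30 members tested, 10 higher and 5 lower. The factors of the common and extrinsic pathway were higher, with F5 at 987, 2848 and 3107 against 1.26, 0.726 and 1.62. F10, the gene of factor X, stood at 757, 754 and 549 against 1.14, 2.06 and 1.52. F7, the gene of factor VII, stood at 159, 108 and 114 against 0.883, 1.69 and 1.72. All 3 were near 1 CPM in BMDMs, and F5 was lowest in the first peritoneal library. The anticoagulant protein S gene Pros1 read 1413, 1469.5 and 1500.0 against 45.8, 48.4 and 54.3. Serpinb2, an inhibitor of urokinase, was at 1024, 2711 and 1161 against 0.252, 4.24 and 0.911, and the urokinase receptor Plaur at 455, 366 and 417 against 38.8, 23.7 and 38.7. The urokinase gene itself, Plau, was among the largest falls named above. Vwf, the von Willebrand factor gene of endothelium and platelets, had 0.473, 0.936 and 0.772 against 90.3, 97.2 and 105 CPM. Pros1 and Gas6 code for the related ligands of the TAM receptors, and they were inverted: Pros1 was higher by 4.88 and Gas6 lower by 8.19 on the log2 scale.

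Adhesion genes split by family member (11 higher and 8 lower of 29 tested, 36 in the list). The selectin ligand gene Selplg was higher together with Selp, at 1886, 1439 and 1586 against 134, 107 and 115. The integrin chains Itgb7 (573, 859 and 934 against 81.4, 46.6 and 61.5) and Itgb2 (4364, 4260.2 and 4691 against 678, 721 and 709.6) were higher. The vitronectin-receptor chains Itgav (28.4, 77.7 and 90.1 against 407, 407 and 372) and Itgb5 (5.91, 1.66 and 7.001 against 219, 241 and 211) were lower, as were Cadm1 (3.43, 2.09 and 3.57 against 319, 572 and 408) and Itga8, which had 12.9 to 15.9 CPM in BMDMs and at most 0.0483 in peritoneal cells. Genes of apoptotic cell uptake showed the same kind of exchange, with 4 higher and 9 lower of 26 tested (33 in the list). Timd4, Marco, Pros1 and Mertk were higher, whereas the lipid receptor gene Trem2 was lower (27.7, 10.4 and 18.7 against 413, 616 and 566). The mannose receptor gene Mrc1 was lower (39.6, 16.3 and 32.4 against 643, 1099.7 and 843). So were Havcr2, the gene for TIM-3 (0, 0.144 and 0.0966 against 34.8, 23.4 and 31.3), and the endocytic receptor gene Lrp1 (475, 778 and 1171 against 4377, 4558 and 4526). That none of the receptors named here overlapped between the groups follows from the same rule for a large difference. Fc receptor genes were higher for the low-affinity and neonatal receptors: Fcgr3 at 2413, 1762 and 2149 against 220.3, 265 and 246. The inhibitory receptor gene Fcgr2b stood at 371, 476 and 369 against 50.2, 52.9 and 49.3. Fcgr4 stood at 123, 143 and 160.3 against 17.7, 21.7 and 16.1. Fcgrt, the neonatal receptor gene, stood at 347, 218 and 343 against 20.8, 30.1 and 20.7. Their common signalling chain Fcer1g did not pass the test (755, 488 and 480.4 against 441, 467 and 461, adjusted p = 0.176), and the scavenger-like Fcrls was lower (18.4, 3.89 and 8.93 against 178, 222 and 200.1).

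**Figure D2:**
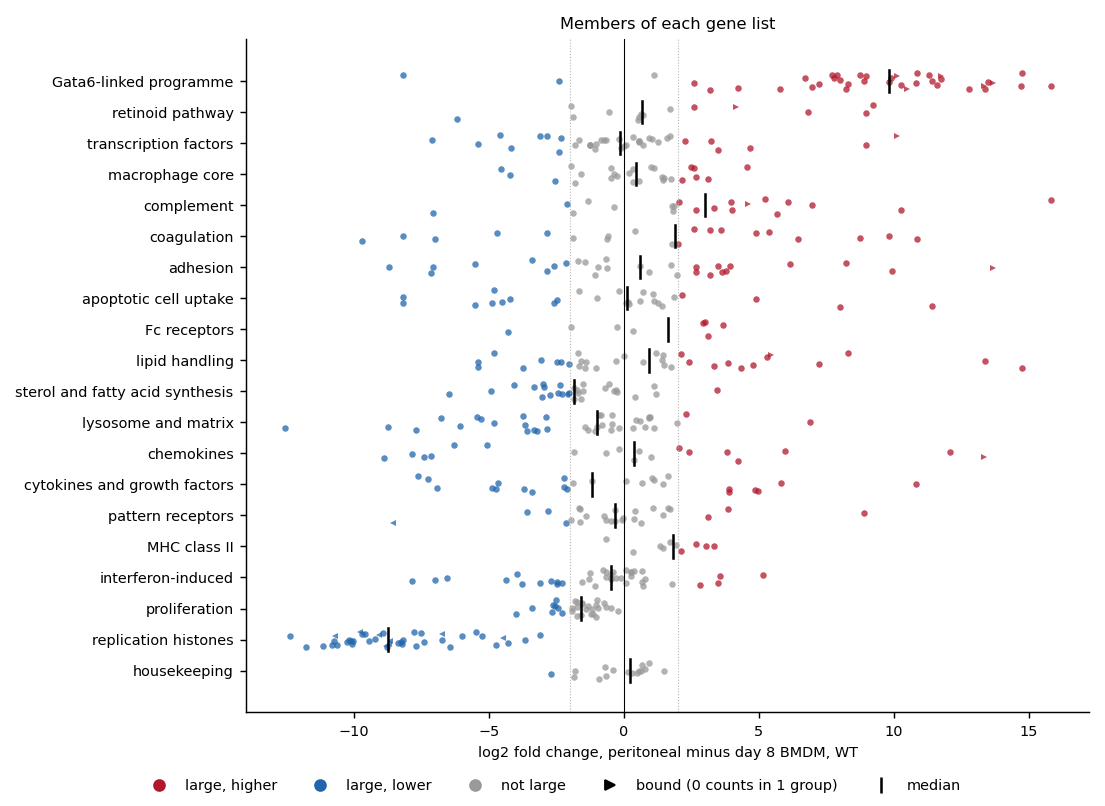
Log2 fold change (peritoneal over day 8 BMDM, WT) of every tested member of 20 gene lists, 1 point a gene, with large differences in red (higher) and blue (lower), the median as a black bar and triangles for genes with 0 counts in 1 group, set at their bound. The Gata6-linked programme lies almost wholly to the right with a median of 9.83, and the replication-dependent histone genes wholly to the left. Most other lists spread to both sides of 0. Genes near 0 in 1 group entered the test only through the other group.

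Lipid genes separated by function. Of 36 members 34 were tested, 12 higher and 8 lower. The eicosanoid enzymes were higher: Ptgs1 (COX-1) at 991, 1114 and 929 against 27.9, 20.2 and 28.4, beside Alox15 and Ptgis. Alox5, which starts leukotriene synthesis, was at 629, 582 and 698 against 35.3, 23.8 and 35.8. Ltc4s, the leukotriene C4 synthase gene, was at 89.6, 53.7 and 76.9 against 3.03, 2.91 and 2.13. Both steps of that route were thus higher. Apoe was the second most abundant transcript per length in peritoneal cells (22946, 15809 and 21299 against 1353, 2692 and 1807, log2 fold change 3.36), and Apoc1 and the fatty acid-binding proteins Fabp4 (349 to 679 against 29.3 to 38.1) and Fabp7 (123 to 175 against 0.605 to 1.42) were higher as well. The genes for cholesterol release were lower, with the acid lipase Lipa at 362, 235 and 365 against 1498, 1734 and 1567. The ester hydrolase gene Nceh1 was at 51.5, 45.1 and 63.4 against 414, 490.3 and 433. The transporter gene Abcg1 was at 19.1, 6.84 and 15.1 against 182, 189 and 175. Abca1, the other efflux transporter, was lower by less than 4-fold (40.2, 55.8 and 145 against 213, 277 and 237).

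Sterol and fatty acid synthesis genes numbered 30, of which 29 were tested, 1 was higher and 13 were lower, with a median log2 difference of -1.84. The desaturase gene Scd2 read 8.98, 17.9 and 18.5 against 469, 429 and 479. The fatty acid synthase gene Fasn read 30.8, 86.1 and 66.2 against 439, 381 and 391. Both desaturase and synthase were lowest in the first peritoneal library. Sqle, the squalene epoxidase, was at 16.5, 28.5 and 8.401 against 146, 151 and 142. The exception was Acly, the ATP citrate lyase that supplies acetyl-CoA, at 2324, 3445 and 3699 against 292, 289.7 and 273. This group depended on which BMDMs were taken. Against WT BMDMs cultured without antibody in another experiment of the series only 2 of its genes were lower by the same rule, and in the cKO libraries 4 were lower.

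Lysosome and matrix genes were led by falls (2 higher and 15 lower of 37 tested, 39 in the list, median log2 difference -0.98). The matrix elastase Mmp12 had 0.118, 0.144 and 1.01 against 251, 186 and 247 CPM. Spp1, the osteopontin gene, had 7.800, 35.9 and 2.22 against 1732, 1494 and 1814. The proton pump subunit gene Atp6v0d2 had 0.236, 0 and 0.2897 against 19.8, 65.6 and 36.95. Spp1 was uneven in peritoneal cells, highest in the second library. The galectin gene Lgals3, ranked 11 per length in BMDMs, stood at 379, 217 and 188 against 2498, 3587 and 3294, and Cd63 at 41.7, 29.8 and 38.9 against 472, 507 and 484. The cholesterol exporter of the lysosome Npc1 was lower (23.05, 27.3 and 35.6 against 289.8, 296 and 277). Common lysosomal proteins did not reach 4-fold: Ctsd differed by -0.90, Ctsb by -1.06, Hexa by 0.93 and Lamp1 by 0.33 on the log2 scale. The exception among the proteases was Mmp9, a gelatinase, which was higher in peritoneal cells (56.3, 39.01 and 61.4 against 0.631, 0.121 and 0.506).

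Among 25 chemokine genes 19 were tested, 7 higher and 6 lower. Those higher were led by Cxcl13 and Ccl24, an eosinophil attractant (277, 195 and 176 against 0, 0 and 0.101, a ratio of 5269-fold (945 to 208127)), and included Cxcl12 (68.5, 48.6 and 73.1 against 0.883, 1.45 and 0.709) and Ccl6 (3262, 1579 and 1994 against 148, 176 and 155). All 6 that were lower attract monocytes or T cells: besides Ccl2, they were Ccl7 (0, 0.3598 and 0.145 against 42.4, 18.2 and 39.99), Ccl12 (0, 0.07197 and 0 against 5.297, 1.09 and 1.72), Ccl3 (2.36, 0.432 and 1.59 against 58.02, 36.3 and 46.98), Ccl4 (0.236, 0.07197 and 0.338 against 38.5, 24.6 and 38.5) and Cxcl10 (0, 0.07197 and 0.0483 against 20.2, 9.44 and 10.1). Chemoattractant receptors gave 6 higher and 4 lower of 17 tested (22 in the list). The formyl peptide receptor Fpr1 stood at 101, 72.1 and 96.3 against 0.252, 0.242 and 0.304, Ccr1 at 561, 701 and 516 against 64.7, 58.7 and 63.98 and the scavenging receptor Ackr3 at 29.4, 112 and 31.5 against 0. Cx3cr1, the fractalkine receptor, was lower (0.827, 0.216 and 0.579 against 109, 54.8 and 79.9, log2 fold change -7.28), and so was Cxcr4 (10.99, 4.25 and 7.24 against 62.7, 90.3 and 67.5).

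Cytokine and growth factor genes ran in both directions (6 higher and 11 lower of 25 tested, 34 in the list). Tnf read 0.118, 0.216 and 0.531 against 58.1, 46.8 and 54.6 (log2 fold change -7.25). The growth factor gene Pdgfb read 0.827, 0.07197 and 0.435 against 57.3, 83.2 and 101. Vegfa, an angiogenic factor, read 0.355, 0.07197 and 0.386 against 29.1, 40.1 and 35.8. These 3 were under 1 CPM in peritoneal cells, whereas Igf1 remained expressed (78.00, 31.4 and 51.7 against 502, 629 and 574). Higher were Tgfb2 and, at low levels, the B cell survival factor Tnfsf13b (36.99, 28.00 and 30.1 against 1.01, 0.968 and 1.01) and Il6 (3.19, 2.02 and 3.19 against 0.126, 0 and 0). Tgfb1 was lower by less than 4-fold (116 to 154 against 290.1 to 314), so the TGFβ ligands also differed in direction. The receptor for G-CSF, Csf3r, was higher (405, 449.8 and 434 against 14.9, 24.1 and 19.7), while the GM-CSF receptor chains Csf2ra and Csf2rb differed by 1.07 and 0.56 on the log2 scale.

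Receptors for microbial patterns ran in both directions (3 higher and 4 lower of 26 tested, 29 in the list). Tlr9, the receptor for unmethylated CpG DNA, had no count in any peritoneal library and 21.4, 32.2 and 25.5 CPM in BMDMs, at least 379-fold lower in peritoneal cells. The flagellin sensor Naip1 (109, 104 and 188 against 0.252, 0.242 and 0.304), the peptidoglycan sensor Nod1 (128, 214 and 177 against 10.5, 11.5 and 13.5) and Ly96, the partner of TLR4 (59.3, 41.6 and 52.9 against 5.93, 6.78 and 4.86), were higher, whereas Tlr4 itself differed by -0.46 on the log2 scale (adjusted p = 0.116). Cd180, a TLR4 homologue, was lower (37.7, 29.1 and 32.6 against 394, 407 and 385). Of the 12 MHC class II genes 10 were tested, 4 were higher and none was lower. H2-Ab1 read 687, 327 and 297 against 32.04, 82.1 and 44.5 and H2-DMa 197, 144 and 123 against 15.3, 16.7 and 13.8. The first peritoneal library was the highest for H2-Aa, H2-Ab1, H2-Eb1 and Cd74, and the second was the highest of the BMDM libraries.

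Interferon-induced genes went to both sides (4 higher and 11 lower of 39 tested, 40 in the list). Guanylate-binding proteins were higher, Gbp3 at 279.7, 208 and 251 against 9.08, 6.29 and 5.57 and Gbp7 at 117, 132 and 109.7 against 12.5, 10.5 and 9.21. The antiviral genes Ifit2 (1.42, 0.432 and 0.483 against 107, 84.98 and 71.1), Ifit1 (4.14, 2.81 and 2.32 against 48.3, 39.6 and 36.2) and Rsad2 (8.27, 2.303 and 4.104 against 96.1, 62.8 and 58.6) were lower. Ifit1 turned to 0.59 against BMDMs without antibody. With BMDMs cultured without antibody as the comparator the list counted 17 higher and 3 lower, so its balance depended on the comparator taken. By the study's methods that experiment was lysed on an earlier day and with another RNA extraction. What lies behind the change was not tested. Markers of alternative activation were higher for Retnla, Ccl24, Arg1 (213, 98.7 and 105 against 0.378, 0.242 and 0.506) and Mgl2 (20.6, 4.39 and 15.4 against 0.505, 0.242 and 0.506), and lower for Mrc1 and Stab1, in all 7 higher and 3 lower of 15 tested (20 in the list). Chil3, another such marker, was higher than in day 8 BMDMs (62.05, 37.9 and 106 against 0, 0.242 and 0.405) but overlapped with the 18 WT BMDM libraries described below (0 to 45.1). Genes linked to small peritoneal macrophages and monocytes divided in the same manner, 9 higher and 5 lower of 15 tested (17 in the list). Lyve1 among them was highest in the first peritoneal library, with 108, 12.5 and 35.1 CPM against 0.

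No proliferation gene was higher in peritoneal macrophages, and 8 of 30 were lower (median log2 difference -1.57). Mki67 read 35.6, 36.99 and 36.98 against 846, 282 and 634 (log2 fold change -4.01). Top2a, a topoisomerase of dividing cells, read 73.04, 73.8 and 57.3 against 585, 215 and 496. Pcna, the replication clamp, read 56.4, 37.9 and 35.9 against 419, 434 and 516. The second BMDM library was the lowest of its group for the mitotic genes. Glycolysis and hypoxia genes gave 2 higher and 6 lower of 29 tested (30 in the list), with Pfkl at 543, 499 and 585 against 93.5, 94.3 and 97.2 on the upper side and Aldoc at 4.49, 2.23 and 4.83 against 71.5, 76.4 and 74.1 and Pgk1 at 36.5, 29.9 and 23.1 against 178, 180.4 and 219 on the lower. Immediate early genes, which respond to handling of cells, were split 6 to 6 of 28 tested (30 in the list). Dusp1 had 1298, 763 and 531 against 26.1, 26.1 and 28.5 CPM, while Jun had 18.3, 17.1 and 25.3 against 145, 145 and 149.6. Dusp1 spanned 9.698 to 1172 CPM over the BMDM experiments, which overlaps with the peritoneal values.

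**Figure D3:**
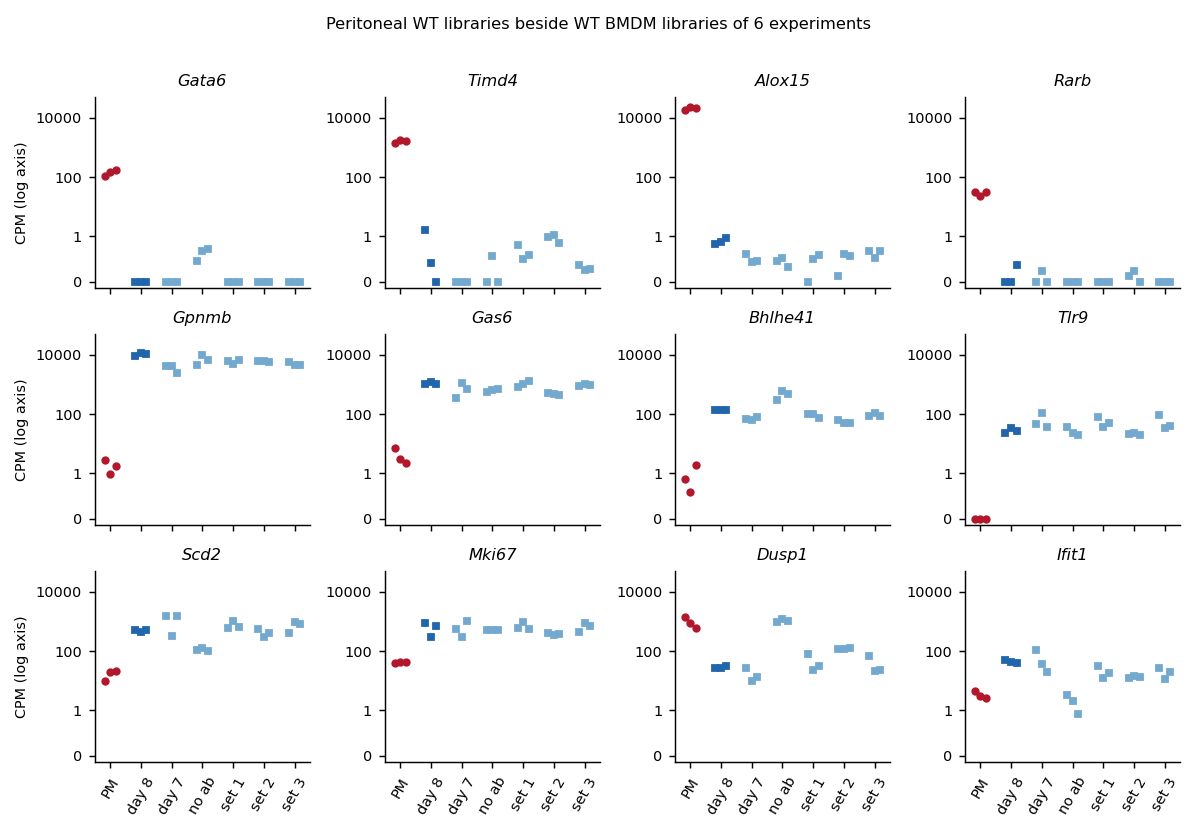
CPM of 12 genes in the 3 peritoneal WT libraries (PM, red) and in 18 WT BMDM libraries of 6 experiments (day 8 in dark blue; day 7, no antibody (no ab) and sets 1 to 3 in light blue), on a log axis with 0 at the bottom. Gata6, Timd4, Alox15 and Rarb lie above, and Gpnmb, Gas6, Bhlhe41 and Tlr9 below, every BMDM library, whereas Dusp1 and Ifit1 overlap with the libraries without antibody.

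The series holds 18 WT BMDM libraries in 6 experiments, 3 libraries each: day 7, day 8, without antibody, and 3 further sets named sets 1 to 3 here. They were used to ask how far cultured macrophages vary among themselves. Scaled together with the peritoneal libraries, 954 of the 1054 genes with a large rise lay above all 18 (90.5%). Of the 1933 with a large fall that all files list, 1701 lay below all 18 (88.0%). Part of this was fixed beforehand, since the rule for a large difference already kept the day 8 libraries among the 18 apart. By the study's methods, BMDM libraries of every experiment also differ from the peritoneal ones in preparation. Gata6 reached at most 0.385 CPM in any BMDM library, in those without antibody, against 107 to 166 in peritoneal cells. Timd4 ranged over 0 to 1.605, Selp over 0 to 3.44, Icam2 over 2.11 to 9.38 and Vsig4 over 0.04497 to 2.82 CPM. From the other side, Gpnmb ranged over 2449 to 11642, Gas6 over 358 to 1251 and Mrc1 over 601 to 1545 in BMDMs, against at most 2.87, 7.06 and 43.8 CPM in peritoneal cells on the same scale.

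When each experiment was taken in turn as the comparator, all against the same 3 peritoneal libraries, the Gata6-linked list counted 35 to 36 higher and 2 lower genes each time. Complement ranged from 10 to 16 higher, coagulation from 9 to 11, and lysosome and matrix genes from 14 to 17 lower. The counts of sterol synthesis (2 to 13 lower), proliferation (2 to 12 lower), immediate early (1 to 8 higher and 3 to 20 lower) and interferon genes (3 to 17 higher and 3 to 14 lower) followed the comparator. Other lists varied too: transcription factors from 4 to 8 higher and 7 to 14 lower, MHC class II genes from 4 to 8 higher, and cytokines from 4 to 8 higher and 8 to 15 lower. The mesothelial and stromal list ranged from 5 to 11 higher and the neutrophil list from 3 to 8 higher and 1 to 8 lower. The day 8 counts of these lists hold for that comparator.

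**Figure D4:**
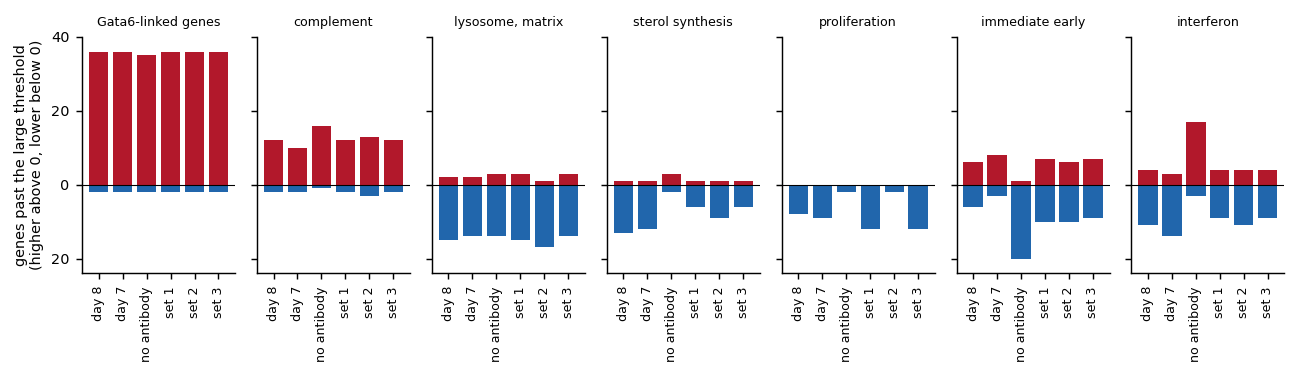
Number of genes of 7 lists with a large difference between the 3 peritoneal WT libraries and 3 WT BMDM libraries of each of 6 experiments, higher in peritoneal macrophages above 0 (red) and lower below 0 (blue). The bars of the Gata6-linked list stay at 35 to 36 above and 2 below, while with the libraries without antibody the interferon bars stand at 17 higher and 3 lower and the immediate early bars at 1 higher and 20 lower.

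The same contrast was read in cKO cells, 3 peritoneal and 2 day 8 BMDM libraries that the WT comparison does not use, with the same change of experiment and preparation. There 3133 of 12935 tested genes (24.2%) showed large differences, 1174 higher (9.08%) and 1959 lower (15.1%). Of 2874 genes with a large difference in WT that were also tested in cKO, 2484 were large in the same direction and 9 had the opposite sign. In the Gata6-linked list 37 of 38 were large the same way. Of the T and NK cell markers, 12 of 16 tested genes were higher and 1 lower in the cKO contrast. In WT 2 were higher and 2 lower of 4 tested. Over all tested genes 9.08% were higher in cKO and 8.51% in WT. In WT, 18 of the 20 markers were at or under 1 CPM in every BMDM library. Genes near 0 in BMDMs enter the test only through the peritoneal libraries, so the filter set their direction. It also asks for fewer libraries where a group holds 2, so these counts do not compare the genotypes. Cd3e read 6.08, 1.67 and 1.65 CPM in the cKO peritoneal libraries and 0 in the cKO BMDMs. The part of those cells in the cKO values was not tested. Gata6 had 131, 185 and 172 CPM in the cKO peritoneal libraries and 0 in the cKO BMDMs, Timd4 1239, 1017 and 1325 against 0 and 0.685, and Gpnmb 9.57, 7.98 and 10.7 against 8972 and 9106. For the 2 genes the study deleted, WT levels were these. H3f3b (chromosome 11, between positions 116021912 and 116027962) read 564, 429.6 and 376 against 236, 278 and 261 CPM, a log2 difference of 0.82 (adjusted p = 0.00428). H3f3a (chromosome 1, between positions 180800832 and 180813943) read 60.04, 35.05 and 36.6 against 47.5, 49.6 and 54.1, which overlapped (log2 difference -0.20, adjusted p = 0.438) and changed sign when counts of a single strand were used.

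Several classes of RNA that carry no poly(A) tail were read separately. All 42 tested replication-dependent histone genes (46 in the list) were lower in peritoneal libraries, with a median log2 difference of -9.29, or -8.73 with genes at 0 set to their bound. Hist1h4a had no count in peritoneal libraries and 113, 80.98 and 148 CPM in BMDMs, and Hist1h1c, one of 3 above 5 CPM in peritoneal cells, read 8.86, 6.05 and 7.77 against 360.2, 261 and 374. The small nuclear RNA Rn7sk read 0.355, 0.432 and 0.435 against 4355, 5559.7 and 6284, and all 10 tested members of the list of small structural RNAs (19 in the list) were lower. Over the whole table, 19 of 19 snoRNA and 7 of 7 scaRNA genes tested were lower. So were 13 of 15 snRNA genes with 1 higher and 8 of 9 misc_RNA genes with 1 higher. Of all tested genes 15.6% were lower. All 19 listed small structural RNAs and 38 of the 46 histone genes were at or under 1 CPM in every peritoneal library. A gene so low there enters the test only through the BMDM libraries. Its direction was thus set by the filter, and these counts are no separate support for the low levels. The mitochondrial ribosomal RNA mt-Rnr2 had 305, 228 and 172 against 34866, 42687 and 28813 CPM, and the nuclear RNA Malat1 108, 108 and 125 against 1904, 2972 and 2522. Protein-coding genes took 99.2% to 99.3% of the counts in peritoneal libraries and 84% to 84.6% in BMDMs, where the single lncRNA Gm26917 took 8.33% to 9.48%.

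Housekeeping messages, a class known for even levels and no measure of tailed mRNA as a whole, differed less in size. Of 16 housekeeping genes none was higher and 1, Pgk1, was lower, and their summed level ranged over 10687 to 13217 CPM in peritoneal and 14744 to 16277 CPM in BMDM libraries. Proliferation genes with tailed mRNA had a median log2 difference of -1.57, beside -9.29 for the histone genes. Of 8 tested mitochondrial mRNAs (13 in the list) 1 was higher and 4 were lower, with a median log2 difference of -1.79. What lies behind the differences between these classes was not tested. With protein-coding genes alone, and without mitochondrial and replication histone genes, 2353 of 11196 tested genes had large differences.

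**Figure D5:**
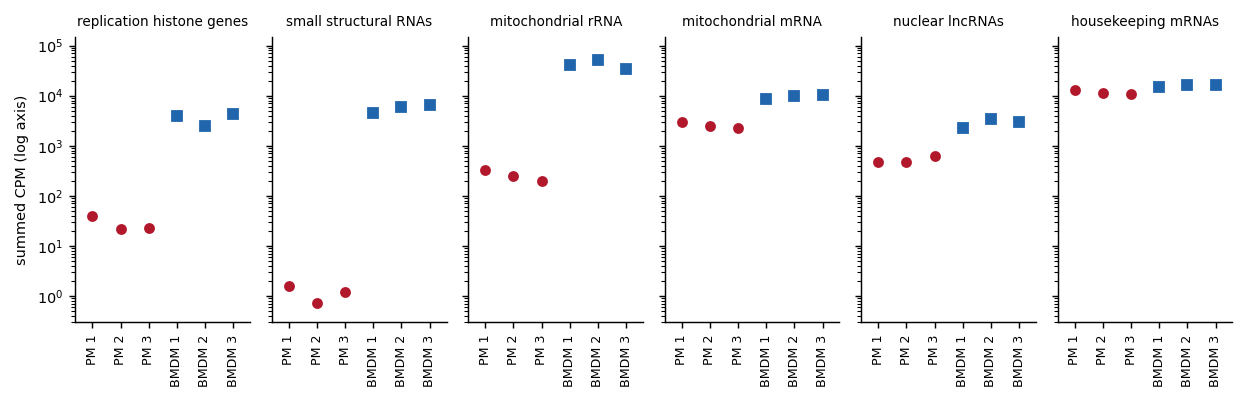
Summed CPM per library (log axis) of 6 lists in the 3 peritoneal (PM, red circles) and 3 day 8 BMDM (blue squares) WT libraries. Histone genes, small structural RNAs and mitochondrial rRNA lie far lower in peritoneal libraries (histone genes at 21.5 to 38.6 against 2487 to 4206 CPM). Mitochondrial mRNAs lie at 2221 to 3044 against 8504 to 10295 CPM, and the housekeeping mRNAs at 10687 to 13217 against 14744 to 16277 CPM.

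Markers of other cells of the cavity were read as whole lists. The dendritic cell list of 15 genes summed to 219 to 264 CPM in peritoneal libraries against 155 to 174 in BMDMs. Of its 9 tested genes 5 were higher and 1 was lower. In every BMDM library 8 of the 15 were at or under 1 CPM, and in every peritoneal library 6. The defining B cell genes Ms4a1 and Pax5 had at most 0.0966 CPM in peritoneal libraries, and the B cell list of 19 genes summed to 111 to 172 CPM against 101 to 113, most of it Bank1 and Blnk. T and NK cell genes summed to 16.3 to 63.2 against 127 to 189, with 63.2 in the first peritoneal library, and Cd3e reached 1.54 CPM. Of the 20 genes in this list, 5 were at or under 1 CPM in every peritoneal library, against 18 in every BMDM library. The larger BMDM sum thus came mostly from few genes, while more of the markers passed 1 CPM in peritoneal libraries. Of the mast cell and eosinophil markers, Cpa3, Cma1, Mcpt4, Epx and Prg2 had at most 0.355 CPM in peritoneal libraries. Mesothelial genes were low but highest in the first peritoneal library, with Msln at 10.3, 3.81 and 2.17 against 0, 0.121 and 0 and Upk3b at 8.75, 3.38 and 2.75 against 0, and the mesothelial and stromal list summed to 27.6 to 139 against 66.6 to 155. Neutrophil genes gave 8 higher and 1 lower of 9 tested (20 in the list) and summed to 2898 to 3208 against 57.8 to 75.5. Over all tested genes 8.51% were higher and 15.6% lower. Of the 20 neutrophil genes, 16 were at or under 1 CPM in every day 8 BMDM library. Genes so low there can enter the test only through the peritoneal libraries, so much of this split was set by the filter. Against the other BMDM experiments this list gave 8 higher and 1 lower without antibody, 4 and 4 for day 7, 4 and 8 for sets 1 and 3, and 3 and 8 for set 2. The sum was mostly Padi4 (2579, 2082 and 2223 against 7.69, 9.81 and 14.4), with Csf3r and Prtn3 (147, 236 and 169.9 against 0.126, 0 and 0.101) next, while the granule genes Ly6g, Camp, Ngp and Mpo stood at 0 to 1.15 CPM. S100a8 and S100a9 were highest in the second peritoneal library (6.38, 26.8 and 5.601, and 4.02, 31.5 and 3.57, against 0.631, 0.121 and 1.01, and 0.126, 0.242 and 0.101). Against 4 of the other BMDM experiments the fold changes of both genes were below 0. The part of these cells in the results above was not tested.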

How the data were processed

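Bulk RNA-seq libraries of WT peritoneal macrophages and WT day 8 BMDMs, 3 each, were grouped by their labels. The authors aligned reads with STAR to mm10 (GRCm38) and deposited raw counts per gene for each library. The unstranded counts were used here for the 54146 listed genes, of which 54079 have a symbol in GENCODE vM21. The study's methods name RSEM and SARTools for its own comparisons, and those values were not used. Rows for unmapped, multimapping, featureless and ambiguous reads stayed out of library sizes. In peritoneal libraries unmapped reads were 1.75% to 2.12% and in BMDMs 14.4% to 16.2%.

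Genes were filtered with filterByExpr by group, scaled by TMM and tested with glmQLFit and glmQLFTest (R 4.3.3, edgeR 4.0.16, limma 3.58.1) on the 6 libraries without covariates, with Benjamini-Hochberg adjustment. CPM use the TMM library sizes. The alternatives were RLE scaling, DESeq2 1.42.0, other filters, the replicate number as a block, leaving out each library, further groups in the fit, 5 other WT BMDM experiments, the strand columns, protein-coding genes alone and other size thresholds. Where a group had 0 counts, folds are bounds from 3 counts over the group; with 1 to 3 counts a ratio with its exact 95% interval is given. Intervals and floors cover counting error only. On simulated counts for this comparison (12115 genes), 100% of 100 genes changed by 2 and of 100 changed by 4 on the log2 scale were recovered, with 12 false calls. The simulation gave every gene the same spread between replicates and left most genes unchanged, unlike these data. Its rates therefore do not carry over to the real comparison. Figures were drawn in Python 3.11.15 with matplotlib 3.10.9.

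The text names the 15 largest rises and the 15 largest falls among protein-coding genes with large differences and a mean log2 CPM of at least 5, the defining markers and members of fixed lists. The members, lists and tests were chosen with earlier results of these data known. Another 2 cKO day 8 libraries, whose labels conflict on interferon-γ, were not analysed here. A few members of the lists are not reported by name here.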

Additional observations from a re-analysis of the deposited data

Results flagged for a closer look

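The difference between the cKO and the WT contrast (peritoneal minus day 8 BMDM, log2 fold change in cKO minus that in WT) was tested in 1 edgeR fit, a test chosen after the data were seen. It called 26 of 13671 genes (902 at an unadjusted p under 0.05), and 8 of the 26 belong to the lists or named genes above. The cKO arm has 3 peritoneal and 2 BMDM libraries. T and NK cell markers were higher in peritoneal libraries for 12 of 16 tested genes in that arm and for 2 of 4 in WT. As said above, these counts follow the filter on low counts and do not compare the genotypes.

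Lyz2, the lysozyme gene, into which LysM Cre is inserted, had log2 fold changes of 2.61 in WT and -1.21 in cKO, a difference of -3.81 (SE 0.37, adjusted p = 0.00312, edgeR). Its close copy Lyz1 may share reads with it. Gpnmb was lower in both, by -12.57 in WT and -9.92 in cKO, a difference of 2.67 (adjusted p = 0.0146). Mrc1 was lower by -4.87 and -7.61 (difference -2.74, adjusted p = 0.045) and Fcrls by -4.30 and -8.35 (difference -4.02, adjusted p = 0.0426).

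Cxcl12 was higher in both genotypes, by 5.97 in WT and 2.86 in cKO (difference -3.1, adjusted p = 0.0358), and so was Fcgr2b, by 2.997 and 1.42 (difference -1.57, adjusted p = 0.0146). Cxcl14 stood at 1.01 in WT and -1.41 in cKO (difference -2.4, adjusted p = 0.0144). The sterol enzyme gene Mvd stood at 0.43 and 1.85 (difference 1.42, adjusted p = 0.029). What lies behind these differences was not tested.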

How the results depend on the processing

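The number of genes called (8360 at first) stayed within 1.5 times under every alternative run, with 8375 by DESeq2, 8318 with RLE scaling and 7237 to 9454 when each library was left out in turn. Large differences numbered 3141 to 3326 with each library left out, 3008 by DESeq2, 2628 on the counts of a single strand and 2353 with protein-coding genes alone. With no filter on low counts they rose to 4778 (1683 higher and 3095 lower), with the median of all genes at 0.37. A threshold of 1 on the log2 scale gave 5744 (2489 higher and 3255 lower) and one of 4 gave 1171 (472 higher and 699 lower). Against WT BMDMs without antibody 5317 were large (3920 lower), against set 2 4590 (3165 lower) and against set 3 4494 (3333 lower), and the median of all genes moved by up to -0.205. These comparators share the peritoneal libraries, and their experiments differ in depth and number of genes tested.

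The replicate numbers did not pair the libraries: same-numbered peritoneal and BMDM libraries had correlations of deviations of 0.00947, -0.0161 and 0.0657, and not every library correlated best with its own number. When the fit took this number as a replicate block, 7988 genes passed and 3017 were large.

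Among 198 tested genes named in the text, 15 of the values under the alternatives had the opposite sign. Against BMDMs without antibody these were gene Fcgr1 (1.06), gene Dusp1 (-0.26), gene Ifit1 (0.59) and gene Cxcl14 (-0.67, and -0.41 against set 2). The others were gene Mvd against day 7 BMDMs (-0.13) and gene H3f3a on a single strand (0.67). The gene S100a8 went to -0.67 (day 7), -0.0913 (set 1), -0.71 (set 2) and -0.31 (set 3), and gene S100a9 to -1.12, -0.38, -1.03 and -0.69. In 40 further cases the direction held and the call was lost, among them Csf1r against day 7 and sets 1 and 3, Fcgrt against day 7, and C5ar2, Fasn, Sqle and H3f3b against BMDMs without antibody. The cause was not tested.

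Depth limits the low genes: a group total of 3 counts is the floor for every bound. Whether a gene differs through cell source or library preparation cannot be told apart.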
